A study of Mus musculus with 14 samples.

Results

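The Lce3 genes are a cluster of 6 small genes of mouse chromosome 3, Lce3a, Lce3b, Lce3c, Lce3d, Lce3e and Lce3f, and they were followed here through newborn mouse paws. They were taken by symbol from a table of 56691 gene IDs, with no other condition on their values, and the set was proposed with results of these data already known. Those results were their levels by day and genotype, which are therefore given as a description and not as a test. The IDs in the count table are ENSMUSG00000054325.6 for Lce3a, ENSMUSG00000042031.5 for Lce3b, ENSMUSG00000045475.6 for Lce3c, ENSMUSG00000043472.11 for Lce3d, ENSMUSG00000074433.5 for Lce3e and ENSMUSG00000068885.5 for Lce3f. Of the 6, 5 passed the filter on low counts that came before the fits, and Lce3b did not.

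The study profiled whole paws of mice labelled wild type (WT) or Krt9-/- (called Krt9 null here) on postnatal day 0 (P0) and day 3 (P3). Krt9 encodes the keratin of the palm and sole epidermis. RNA was total RNA depleted of ribosomal RNA, and reads were counted per gene in 14 libraries. On P0 there were 4 WT libraries (2 labelled male and 2 female) and 2 Krt9 null libraries (1 of each sex), and on P3 there were 5 WT libraries (3 male, 2 female) and 3 Krt9 null libraries (1 male, 2 female). The labels do not give the strain, the structure of the Krt9 allele or the number of animals behind a library, so p-values measure the spread between these libraries, which may in part be technical. WT replicates 2 and 3 of P3 came from 1 litter. On P0, WT replicate 1 and Krt9 null replicate 1, both labelled male, also have 1 litter number in common.

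Library totals ran from 28947715 to 41004173 counts. All levels below are CPM, read counts scaled to a common library size with the trimmed mean of M values (TMM), unless raw counts are named. Krt9, the targeted gene, stood at 32.9 to 83.0 CPM in the WT paws of P3 and at 7.74 to 25.2 CPM in the Krt9 null paws of P3. On P0 it overlapped between genotypes, at 2.09 to 7.61 CPM in WT and 5.32 and 6.08 CPM in Krt9 null paws. WT replicate 4 of P0 stood apart: it is labelled female, yet Xist, which coats the inactive X, stood at 0.181 CPM in it, and Ddx3y of the Y chromosome at 0.155 CPM. The columns of the count table run alphabetically from start to end in a set of 8 libraries (column block A) and again in a set of 6 (column block B), and 23.2% of the 21619 genes tested differed between the blocks. The block is read from column order only and is not a labelled batch.

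Late cornified envelope genes encode small proteins rich in cysteine, serine and proline that are cross-linked into the cornified envelope, the protein shell under the membrane of dead surface keratinocytes. They lie in the epidermal differentiation complex, together with loricrin, filaggrin, involucrin and the small proline-rich (Sprr) genes. The LCE1 group is a usual product of intact interfollicular skin, whereas the LCE3 group in human skin is low at rest and is induced by wounding, barrier disruption and the inflamed epidermis of psoriasis.

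The sequences just upstream of the 6 genes are shown first because they bear on which members have a common start region. RefSeq gives these as the 110 bases before each gene's start, 5′ to 3′ on the strand of the gene, in the build GRCm38.p6, which is older than the GRCm39 build named for the alignment. Capitals mark TTGTGAAA, CATGCTTG and GGATAAAAG, which were picked out by comparing these 6 sequences.
Lce3a (chr3:92926231-92926340, minus strand): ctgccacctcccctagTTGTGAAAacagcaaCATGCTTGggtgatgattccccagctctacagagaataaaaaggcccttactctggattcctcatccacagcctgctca
Lce3b (chr3:92932869-92932978, plus strand): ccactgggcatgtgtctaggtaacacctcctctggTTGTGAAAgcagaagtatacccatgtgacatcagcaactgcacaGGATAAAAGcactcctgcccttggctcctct
Lce3c (chr3:92944376-92944485, plus strand): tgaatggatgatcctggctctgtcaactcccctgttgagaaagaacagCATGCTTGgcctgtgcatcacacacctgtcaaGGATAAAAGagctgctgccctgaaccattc
Lce3d (chr3:92957280-92957389, plus strand): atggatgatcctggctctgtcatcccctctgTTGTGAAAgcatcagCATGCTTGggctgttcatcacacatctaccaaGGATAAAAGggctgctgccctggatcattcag
Lce3e (chr3:92966951-92967060, plus strand): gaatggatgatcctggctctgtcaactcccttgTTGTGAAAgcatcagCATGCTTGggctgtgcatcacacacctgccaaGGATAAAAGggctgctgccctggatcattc
Lce3f (chr3:92992107-92992216, plus strand): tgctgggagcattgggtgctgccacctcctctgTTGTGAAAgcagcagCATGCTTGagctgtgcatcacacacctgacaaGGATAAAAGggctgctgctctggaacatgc

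TTGTGAAA was present in the 250 bases before the start in 5 of 6 Lce3 genes, with its first base 75 to 94 bases before the start and Lce3c the exception. Over both strands, 1.03% of 32851 RefSeq promoter windows of that length hold it. CATGCTTG was present in 5 of 6, all but Lce3b, against 0.801% of windows, and GGATAAAAG in 5 of 6, all but Lce3a, against 0.234%. None of these 3 strings was found in the 14 Lce1 and Lce6a windows searched. The plain TATA-like string ATAAAA, which lies inside GGATAAAAG, was present in all 6 Lce3 windows, in 13 of the 14 Lce1 and Lce6a windows and in 17% of all windows. The longer string CAAGGATAAAAG is the longest run shared by the windows of Lce3c, Lce3d, Lce3e and Lce3f. These 4 members were grouped beforehand for their substantial counts, so its presence in them was fixed by that choice. It occurred in 5 windows in all (0.0152%). The AP-1 string TGANTCA (6.75% of windows) and the Grainyhead-like string AACCNGTT (1.79%) were found in 0 of 6 Lce3 windows. The 3 marked strings and this longer one were chosen after the sequences were seen, and a match or its absence describes letters in this window only.

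Within the transcripts the members were more alike still, which limits how firmly reads can be given to 1 member. All 6 coding sequences are 297 bases long in the GENCODE vM21 annotation, and identity between pairs ran from 94.3% (Lce3a and Lce3b) to 99.3% (Lce3d and Lce3f). Lce3e and Lce3f differ at 3 coding positions, and their transcripts have a run of 280 identical bases.

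Of all 100-base stretches of its transcript, Lce3a had 100% and Lce3b 98.9% that occurred in no transcript of another gene. For Lce3c the share was 75.9%, for Lce3d 71.7%, for Lce3e 63.6% and for Lce3f 57.0%. Neither the read length nor the handling of reads that map to several places is given in the sources used here, so the split of counts among Lce3c, Lce3d, Lce3e and Lce3f is uncertain.

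Lce3c was the leading member. It was counted at 112, 74.7, 57.8 and 28.1 CPM in WT replicates 1 to 4 of P0 and at 44.7 and 43.3 CPM in the Krt9 null paws of that day. On P3 it was counted at 12.4, 6.14, 12.5, 12.6 and 16.8 CPM in WT and at 17.8, 7.34 and 23.8 CPM in Krt9 null paws. Every P0 library lay above every P3 library, and on each day the genotypes overlapped. The share of all genes that separate the days in this way was not counted, here or for the members below. In bulk tissue, fewer cells of a type and less RNA per cell cannot be told apart. Group means were 68.2 ± 35.1 (SD, n = 4), 44.0 ± 0.954 (n = 2), 12.1 ± 3.82 (n = 5) and 16.3 ± 8.31 CPM (n = 3) in the same order.

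Lce3d showed the widest gap between the days. Its levels on P0 were 53.7, 36.3, 16.5 and 5.41 CPM in WT and 8.58 and 13.8 CPM in Krt9 null paws. By P3 they were 0.303, 0, 0.317, 0.332 and 0.154 CPM in WT and 0.335, 0 and 1.09 CPM in Krt9 null paws, which is at most 31 raw counts in a library. The lowest P0 library was again WT replicate 4, the one that stood apart, and it was still above all 8 libraries of P3. The 2 libraries with a count of 0 allow up to 3 counts each, from counting error alone.

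Lce3e had the same order of the 4 WT libraries on P0 as Lce3c and Lce3d. WT paws had 54.2, 36.0, 22.8 and 7.24 CPM and Krt9 null paws 13.1 and 15.4 CPM. P3 levels were 0.275, 1.25, 2.44, 1.59 and 2.13 CPM in WT and 2.26, 0.514 and 3.62 CPM in Krt9 null paws. The days did not overlap, and Lce3e kept counts in all 8 libraries of P3, where Lce3d had none in 2.

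Lce3f was the lowest of the 4 on P0, with 13.8, 12.1, 6.15 and 1.79 CPM in WT and 2.78 and 5.97 CPM in Krt9 null paws. P3 levels were 0.330, 0.144, 0.349, 0.266 and 0.710 CPM in WT and 0.363, 0.484 and 0.597 CPM in Krt9 null paws, which is 6 to 23 raw counts in a library. Here too each P0 library exceeded each P3 library.

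Lce3a and Lce3b were close to the limit of detection and are given in raw counts. Lce3a had 31, 11, 8 and 0 counts in the WT paws of P0, and 0 in both Krt9 null paws of P0 and in all 5 WT paws of P3. The Krt9 null paws of P3 had 0, 0 and 4. With 50 counts in the 4 WT libraries of P0 and none in the 5 of P3, set at a floor of 3 counts over the group, its pooled level was at least 21.8-fold higher on P0, but 1 P0 library had no count either. Lce3b had 13, 7, 3 and 0 counts in WT and 0 and 4 in Krt9 null paws of P0. On P3 it had 0, 0, 0, 0 and 3 counts in WT and 5, 0 and 4 in Krt9 null paws. The pooled WT ratio of P0 over P3 for Lce3b was 10.02, with an exact 95% counting interval of 3.03 to 52.1 that leaves out the spread between libraries. In Krt9 null paws the same ratio was 0.581 (0.131 to 2.08), from 4 and 9 counts.

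**Figure D1:**
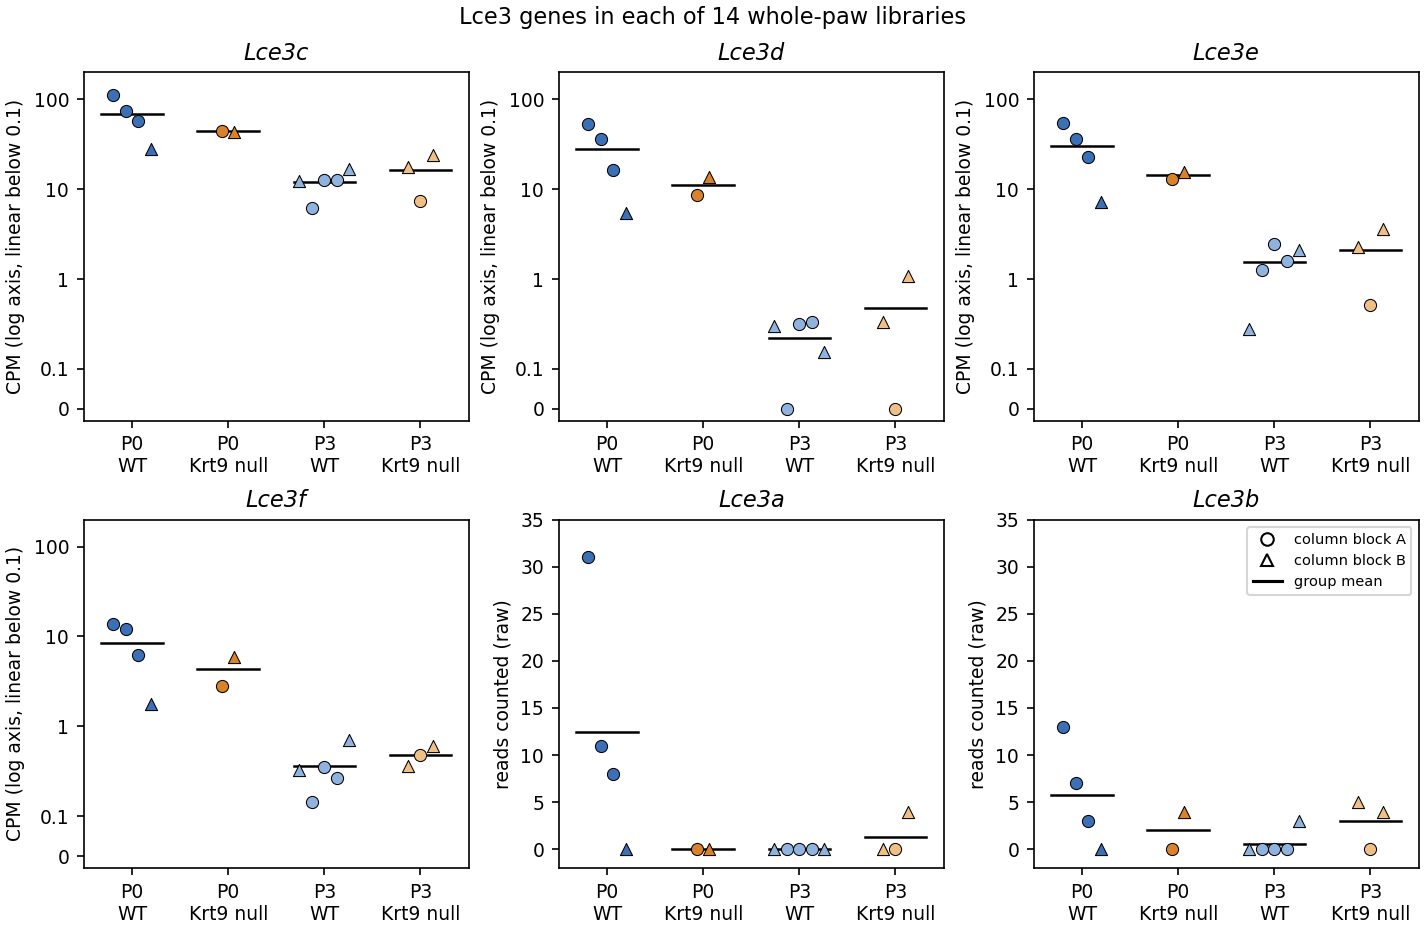
Levels of the 6 Lce3 genes in each library, by day and genotype. Points are libraries (circles, column block A; triangles, column block B), lines are group means, the first 4 panels show CPM on a log axis that is linear below 0.1, and the panels of Lce3a and Lce3b show raw counts on a linear axis. For Lce3c, Lce3d, Lce3e and Lce3f all 6 libraries of P0 lie above all 8 libraries of P3, while WT and Krt9 null points overlap on both days. The share of all genes that separate the days in this way was not counted.

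Set per kilobase of transcript, the levels gave an order of the genes, which rests on the uncertain split of counts among Lce3c, Lce3d, Lce3e and Lce3f. In WT paws of P0 the means were 120.3 ± 61.9 CPM per kb for Lce3c, 57.0 ± 43.5 for Lce3d, 49.5 ± 32.8 for Lce3e, 13.8 ± 9.03 for Lce3f, 0.687 ± 0.612 for Lce3a and 0.316 ± 0.272 for Lce3b (SD, n = 4). Lce3c was the highest member in 6 of 6 libraries of P0 and in 8 of 8 of P3. Lce3d and Lce3e, neighbours in the cluster and in this order, traded places: Lce3d was above Lce3e in 3 of 6 libraries of P0 and in 1 of 8 of P3. Their order depends on the transcript lengths used, 491 bases for Lce3d and 607 for Lce3e. Lce3f lay below Lce3c, Lce3d and Lce3e in 6 of 6 libraries of P0 but above Lce3d in 3 of 8 of P3. Among these 3 were WT replicate 2 and Krt9 null replicate 2, which held 0 Lce3d counts.

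The make-up of the Lce3 counts therefore differed between the days. Lce3c took between 46.8% and 66.1% of the Lce3 counts of a library on P0 and between 80.1% and 93.2% on P3, with no overlap. Its mean share was 54.1% in WT and 59.8% in Krt9 null paws of P0, and 84.9% and 84.7% on P3. The mean share of Lce3d went the other way, from 18.6% and 15.0% on P0 to 1.47% and 1.77% on P3, and that of Lce3e from 21.2% and 19.3% to 11.2% and 9.76%. Lce3f took 5.89% and 5.81% on P0 and 2.40% and 3.19% on P3. Counts of Lce3c over counts of Lce3d were 2.06 to 5.20 in the libraries of P0 and 21.8 to 109 in the 6 libraries of P3 that had any Lce3d. On each day the Lce3c shares of the 2 genotypes overlapped, at 55.1% and 64.6% in Krt9 null paws of P0 and 81.0% to 88.0% on P3.

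**Figure D2:**
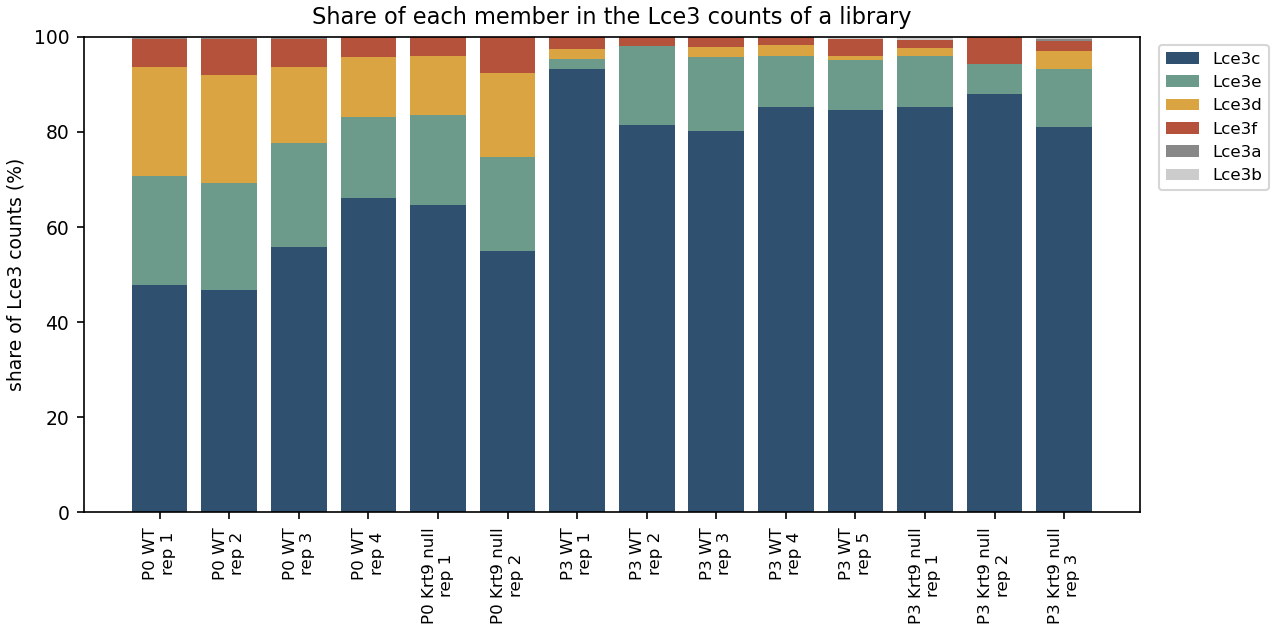
Share of each member in the Lce3 counts of each of the 14 libraries, in percent, stacked to 100. Lce3c holds 46.8% to 66.1% of a bar on P0 and 80.1% to 93.2% on P3, where Lce3d is reduced to a thin band or to 0.

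Fitted differences between the days followed these levels. In WT paws the log2 difference of P3 minus P0 was -2.49 (SE 0.43) for Lce3c, -7.01 (SE 0.97) for Lce3d, -4.29 (SE 0.72) for Lce3e and -4.58 (SE 0.57) for Lce3f, or 5.62, 129, 19.5 and 24.0-fold lower on P3. With edgeR's quasi-likelihood test all 5 members that were tested were called lower at an adjusted p under 0.05, where 8.07% of all genes tested were called lower and 16.6% were called in either direction. The call of Lce3a was lost when any of WT replicates 1 to 3 of P0 or any WT library of P3 was left out, whereas the other 4 were kept. With the labelled litter number as a fixed replicate block, 0 members were called, as that model called 3 genes in all. With litter within day as a random block, limma voom called 4 members among 3008 genes in all. Over all genes, 6645 reached an unadjusted p under 0.05 between the days in WT paws. Since the day pattern entered the choice of the genes, nothing is read from these counts. In Krt9 null paws the differences were -1.42 (SE 0.57), -4.60 (SE 1.15), -2.74 (SE 0.91) and -3.20 (SE 0.72) in the same order, with 0 members called against 0.768% of all genes. An unadjusted p under 0.05 was reached by 3435 genes in this comparison, and DESeq2 called 2 of the members, Lce3d and Lce3f, among 1094 genes in all. The 2 day comparisons have no library in common.

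WT replicate 4 of P0 held the lowest level of all 4 main members on that day and pulled the WT mean down. Without it the WT day differences were -2.78, -7.39, -4.65 and -4.99 for Lce3c, Lce3d, Lce3e and Lce3f, and Lce3f was also called lower on P3 in Krt9 null paws, in a fit that called 155 genes in that comparison. Within column block A the WT differences were -2.95, -7.43, -4.40 and -5.39, and within block B, where WT replicate 4 is the only WT library of P0, they were -0.94, -4.53, -2.59 and -1.77. In Krt9 null paws of block A (1 library a day) they were -2.56 for Lce3c, -4.62 for Lce3e and -2.47 for Lce3f. The block A library of P3, Krt9 null replicate 2, held 0 Lce3d counts, so Lce3d was at least 94.7-fold lower in it than in Krt9 null replicate 1 of P0, counted against a floor of 3 counts in that library. In block B the Krt9 null values were -1.06, -4.30, -2.40 and -3.64 for the 4 genes. The fitted day differences of both blocks given here were all negative.

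Between genotypes no member was called on either day. On P0 the log2 difference of Krt9 null minus WT was -0.62 (SE 0.56) for Lce3c, -1.31 (SE 0.99) for Lce3d, -1.06 (SE 0.87) for Lce3e and -1.03 (SE 0.67) for Lce3f. Of all genes tested, 0.00463% (1 gene, Krt19) was called with edgeR and 9 genes by DESeq2, while 1289 reached an unadjusted p under 0.05. The 2 Krt9 null libraries lay inside the WT range for each of the 4 genes, above WT replicate 4 and below WT replicates 1 to 3. Without WT replicate 4 the differences were -0.91, -1.76, -1.44 and -1.49, again with 0 called. Krt9 null replicate 1 and WT replicate 1 have the same litter number. They stood at 44.7 and 112 CPM for Lce3c, 8.58 and 53.7 for Lce3d, 13.1 and 54.2 for Lce3e, and 2.78 and 13.8 for Lce3f. A fit with litter number as a fixed block treats equal numbers on both days as 1 litter. It gave -1.35, -2.56, -2.40 and -2.03 on P0, with SE between 0.41 and 0.81. On P3 it gave 1.47, 2.04, 3.28 and 1.71, with SE between 0.62 and 1.41. This fit called 0 members and 0 genes in all between genotypes on either day. No litter number of P3 holds both genotypes, so the P3 values rest on numbers that recur across the days. Whether these mean the same litter is unknown, so nothing is read from the P3 values.

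Column block and genotype were unevenly crossed on P0. Block A compares 1 Krt9 null library with 3 WT libraries and gave -0.88, -2.06, -1.53 and -1.94 for Lce3c, Lce3d, Lce3e and Lce3f. Block B compares Krt9 null replicate 2 with WT replicate 4 and gave 0.63, 1.37, 1.10 and 1.75, so its WT side rests on that library alone. With the block as a term beside genotype, day and sex, the differences on P0 were -0.70, -1.22, -0.91 and -0.98, with 0 members called.

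On P3 the differences of Krt9 null minus WT were 0.45 (SE 0.46) for Lce3c, 1.10 (SE 1.22) for Lce3d, 0.49 (SE 0.78) for Lce3e and 0.34 (SE 0.67) for Lce3f, with 0 members and 0.00463% of all genes called (again Krt19 alone, with 1442 genes at an unadjusted p under 0.05, and 26 called by DESeq2). Krt9 null replicate 3 was the highest library of Lce3c, Lce3d and Lce3e on that day. Without it the differences of Lce3d and Lce3e took the other sign (-0.32 and -0.19), while those of Lce3c and Lce3f were 0.02 and 0.23. In block A (1 Krt9 null against 3 WT libraries) the values were -0.49 for Lce3c, -1.75 for Lce3e and 0.97 for Lce3f. For Lce3d the Krt9 null library of that block held 0 counts and the 3 WT libraries 20 counts together, at least 2.14-fold lower in the Krt9 null library against the same floor. In block B (2 against 2) the values were 0.52, 1.59, 1.30 and -0.11 for the 4 genes. The summed level of 8 epithelial markers ran from 2975 to 7592 CPM in the Krt9 null paws of P3 and from 2578 to 5189 CPM in the WT paws, with no listed marker at 0 in all libraries, and its part in the Lce3 values was not tested.

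The genotype difference of P3 minus that of P0 (the interaction) was 1.07 (SE 0.72) for Lce3c, 2.41 (SE 1.54) for Lce3d, 1.54 (SE 1.15) for Lce3e and 1.38 (SE 0.92) for Lce3f. No member was called, nor was any gene (0% of 21619, with 1644 at an unadjusted p under 0.05 and 85 called by DESeq2).

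**Figure D3:**
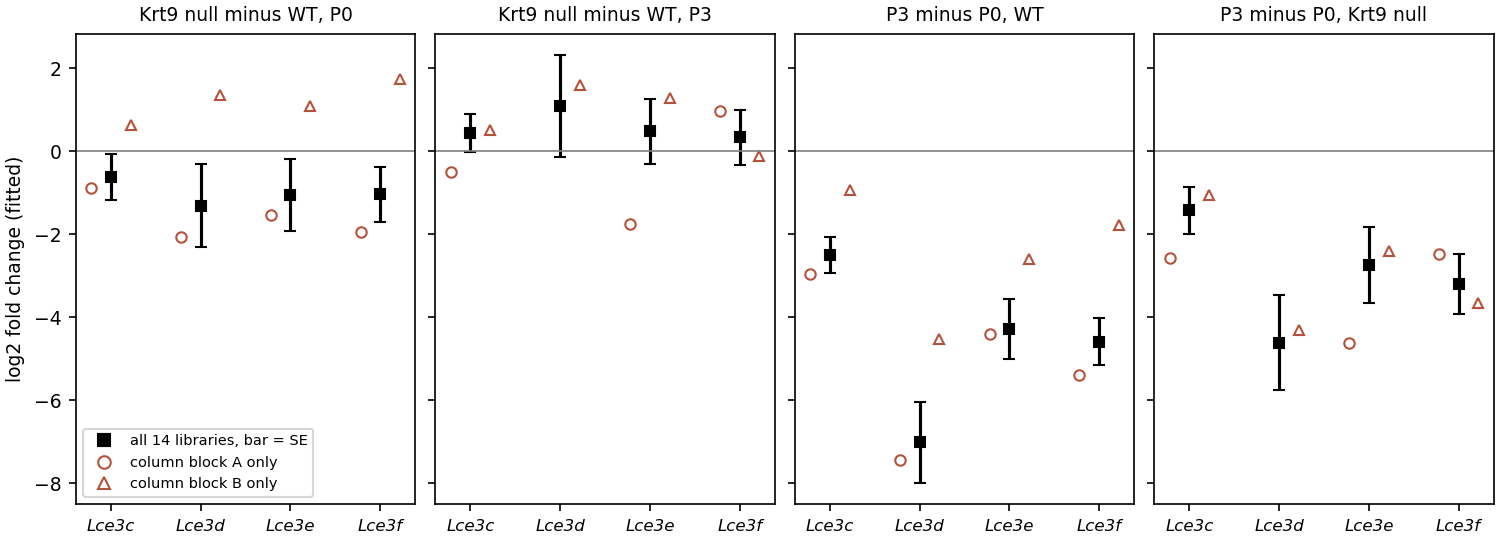
Fitted log2 differences of Lce3c, Lce3d, Lce3e and Lce3f for genotype on each day and for day in each genotype. Squares with SE bars come from all 14 libraries, open circles from column block A and open triangles from column block B; no block A point is drawn for Lce3d on P3 between genotypes or between the days in Krt9 null paws, where a library held 0 counts. The day differences drawn are below 0, whereas on P0 the genotype differences are below 0 in block A and above 0 in block B, where 1 library stands for each genotype.

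Labelled sex and the column block played no part in choosing the genes and were tested. The male minus female difference was 0.08 (SE 0.34) for Lce3c, 0.05 (SE 0.74) for Lce3d, 0.10 (SE 0.56) for Lce3e and -0.33 (SE 0.45) for Lce3f. No member was called by edgeR, with adjusted p between 0.872 and 0.991 over the 5 members, where 0.0278% of genes were. The count was also 0 without WT replicate 4 of P0, whose RNA did not match its sex label. In a fit that also held the column block, the difference of block B minus block A was 0.22 (SE 0.46) for Lce3c, -0.15 (SE 1.12) for Lce3d, -0.33 (SE 0.82) for Lce3e and -0.09 (SE 0.64) for Lce3f. None of the 5 was called (adjusted p between 0.667 and 0.944), against 23.2% of all genes (9.68% higher and 13.5% lower in block B).

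The Lce1 genes, the larger branch of the family, had sums that overlapped between the days. Their 14 members summed to 3480 ± 1068 CPM in WT (n = 4) and 2985 ± 391 CPM in Krt9 null paws (n = 2) of P0, and to 2691 ± 573 (n = 5) and 4484 ± 1648 CPM (n = 3) on P3. The Lce3 genes together summed to 135 ± 82.0, 73.9 ± 6.75, 14.2 ± 4.49 and 19.5 ± 10.6 CPM. Lce3 counts were thus 2.24% to 5.51% of the Lce1 counts in WT and 2.12% and 2.90% in Krt9 null paws of P0. On P3 they were 0.352% to 0.713% in WT and 0.318% to 0.509% in Krt9 null paws, again without overlap between the days.

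Of 15 Lce1 and Lce6 genes tested, 0 were called between the days in WT paws, beside 16.6% of all genes in either direction. Also 0 were called between the days in Krt9 null paws, beside 0.768% of all genes, and between genotypes, beside 0.00463% on each day. On the log2 scale their medians were -0.49 between the days in WT paws and 0.67 in Krt9 null paws. Between genotypes they were -0.31 on P0 and 0.87 on P3. The medians of all genes in these comparisons lay between -0.0136 and -0.00392. Lce1m had 1147 ± 301 and 968 ± 243 CPM in WT paws of P0 and P3, with a day difference of -0.25 (SE 0.24, edgeR adjusted p = 0.531). Lce1a1 and Lce1a2 differed by -0.27 and -0.50 with adjusted p of 0.428 and 0.164.

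The genes beside the cluster showed no called day difference. In the order of protein-coding genes in GRCm38.p6 the cluster is bounded by Lce1k, Kprp, Lce1l and 2310050C09Rik before Lce3a and by Crct1, Lce1m, Tdpoz8 and Crnn after Lce3f, with Lce3a on the minus strand and the other members on the plus strand. Tdpoz8 was not analysed here. The other 7 neighbours, named for their position, had WT day differences between -0.72 (Kprp, a keratinocyte proline-rich protein) and 0.76 (Crnn, cornulin). Of these edgeR called 0, beside 16.6% of all genes in either direction. Their Krt9 null day differences were all above 0, between 0.59 (Crct1) and 1.29 (2310050C09Rik). There too 0 were called, beside 0.768% of all genes. The next gene on the Lce3a side, 2310050C09Rik, stood at 192 ± 59.6 CPM in WT paws of P0 and 189 ± 47.3 CPM on P3. Its Krt9 null levels were 178 ± 62.1 CPM on P0 and 408 ± 186 CPM on P3. Crct1, the next gene on the Lce3f side, stood at 674 ± 253 and 437 ± 104 CPM in WT paws of P0 and P3, a difference of -0.63 (SE 0.29, edgeR adjusted p = 0.166).

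The genes whose levels were most like the Lce3 sum lay elsewhere. Over the 14 libraries and 14092 genes ranked, the highest Pearson correlations of log2(CPM + 0.5) with the Lce3 sum were those of Krt16 (r = 0.98), Sprr2d (0.97), Krt6b (0.96) and Sprr2g (0.96). Krt16 and Krt6b encode keratins known for wounded, hyperproliferative and palmoplantar epidermis, and Sprr2d and Sprr2g small proline-rich envelope precursors. The points have the 2 days in common, so r is high for any gene that is much lower on P3. After the mean of each of the 4 groups was removed, the closest genes were Krt16 (r = 0.94), Lyar (0.93), Krt6b (0.93), Psmb2 (0.91) and Get4 (0.91). Krt16 and Krt6b thus stood among the 5 closest by both measures, while Lce1m ranked 4645 over all libraries (r = 0.30) and 83 within groups (r = 0.82). These are descriptions over 14 libraries that also differ in epithelial content, and no p is given for them.

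Krt16 was at 1495, 1228, 919 and 267 CPM in WT and 254 and 389 CPM in Krt9 null paws of P0, and at 59.4, 18.1, 57.3, 58.3 and 78.3 CPM in WT and 92.7, 12.4 and 113 CPM in Krt9 null paws of P3. As with Lce3c, WT replicate 4 was low on P0, and WT replicate 2 and Krt9 null replicate 2 were the lowest of their groups on P3. Sprr2d went from 107, 103, 48.9 and 16.1 CPM in WT paws of P0 to 1.40, 0.842, 1.30, 0.531 and 1.98 CPM on P3.

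**Figure D4:**
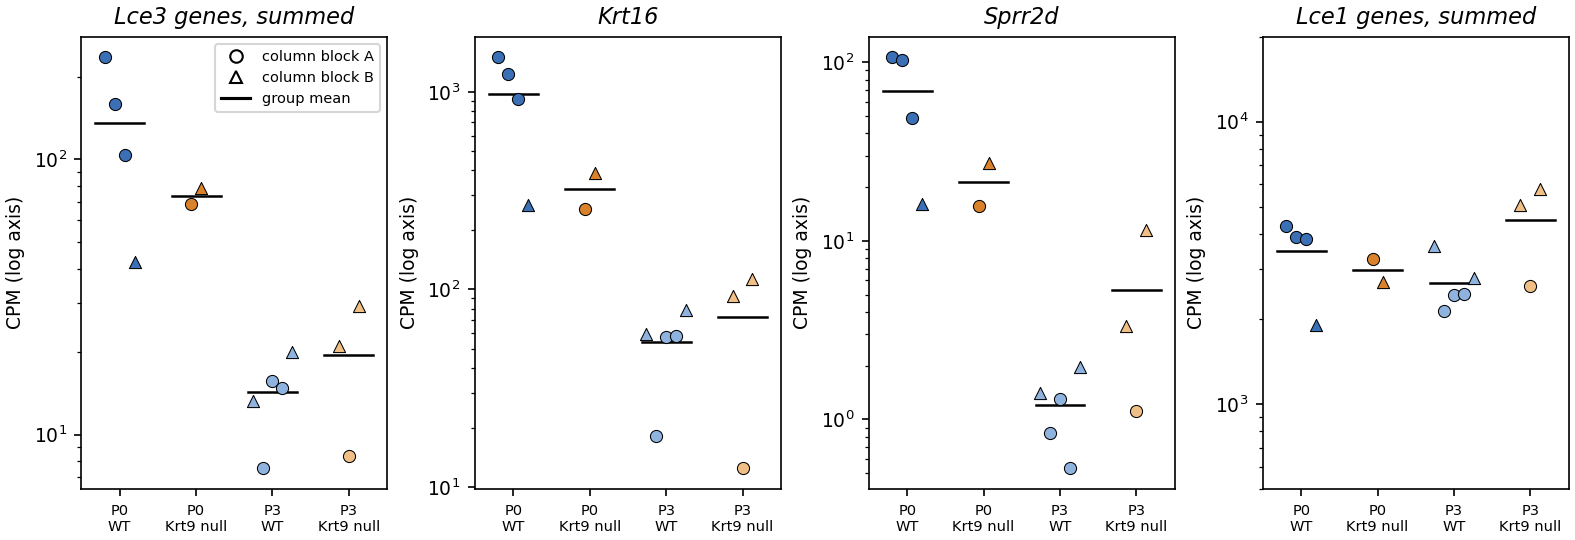
The Lce3 sum beside Krt16, Sprr2d and the Lce1 sum in each library, in CPM on log axes of different range. Points are libraries (circles, column block A; triangles, column block B) and lines are group means. Lce3, Krt16 and Sprr2d are higher in WT paws of P0 than of P3 without overlap, whereas the Lce1 sums of the 2 days overlap.

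Among other gene groups of the epidermis, the Sprr2 genes, which lie further along the same complex, had the lowest list median in the WT day comparison. Of 11 tested, 8 were called lower on P3 and 0 higher, with a median of -3.59, beside 8.07% of all genes lower and 8.49% higher. Sprr2d differed by -5.82 (SE 0.80, edgeR adjusted p = 0.00193) and Sprr2h by -2.23 (SE 0.56, adjusted p = 0.0241), while Sprr2b did not pass (-1.17, SE 0.81, adjusted p = 0.369). In Krt9 null paws 0 of 11 were called, with a median of -0.95.

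Barrier stress and alarm genes, a list that holds the stress keratins, S100 proteins, IL-36 cytokines, stefins and beta-defensins, were mixed in WT paws, with 4 of 21 called lower and 2 higher on P3 and a median of -0.48. Of all genes, 8.07% were called lower and 8.49% higher in that comparison. Krt16 differed by -4.17 (SE 0.72, edgeR adjusted p = 0.00488), whereas Krt17, a keratin also induced by injury, differed by 0.09 (SE 0.18, adjusted p = 0.778) and the stefin Stfa3 by 0.06 (SE 0.39, adjusted p = 0.939). Of 8 tested ligands and receptors of IL-17, IL-22 and IL-36, 1 was called lower in WT paws, the IL-36 receptor gene Il1rl2 (-0.58, SE 0.17, edgeR adjusted p = 0.0346), and 1 was called higher on P3 in Krt9 null paws, the IL-17 receptor subunit Il17rc (1.08, SE 0.23, adjusted p = 0.0434). Between the days in Krt9 null paws, 0.338% of all genes were called higher and 0.43% lower.

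Among 14 other envelope and epidermal differentiation complex genes tested, 5 were called lower and 1 higher on P3 in WT paws, with a median of -0.57. The shares over all genes, 8.07% lower and 8.49% higher, stand beside each list given here for WT paws. Lor, which encodes loricrin, the main envelope protein, was lower (-1.05, SE 0.17, edgeR adjusted p = 0.00172). Flg, which encodes filaggrin, differed by -0.51 (SE 0.19, edgeR adjusted p = 0.0829). Of 14 cornification enzymes 4 were called lower and 0 higher, with a median of -0.78. Of 8 suprabasal keratins 2 were called lower and 2 higher, with a median of -0.50 and with Krt1 (-0.61) and Krt10 (-0.44) not passing. Regulators of late differentiation gave 6 of 24 lower and 1 higher, with a median of -0.38. Klf4, a transcription factor of barrier formation, differed by -0.91 (SE 0.30, edgeR adjusted p = 0.0527). In Krt9 null paws these 4 lists gave 0, 1, 2 and 0 genes called higher on P3 and 0 lower, beside 0.338% and 0.43% of all genes. In the genotype and interaction comparisons edgeR called no gene of any of the 8 lists.

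Marker levels that differed between the days are given beside the Lce3 values. Summed leukocyte markers (5 genes) ran from 51.8 to 96.9 CPM in the libraries of P0 and from 149.6 to 288 CPM in those of P3. Markers of the hair follicle inner root sheath (8 genes) ran from 59.0 to 198 CPM on P0 and from 247 to 2323 CPM on P3. Both of these sums were higher on P3 in all libraries. Muscle markers (3 genes) ran from 1660.2 to 5946 CPM on P0 and from 704 to 1529 CPM on P3, and endothelial markers (3 genes) from 370.3 to 465 CPM and from 177 to 365 CPM, so that both sums were lower on P3 without overlap. Epithelial markers overlapped, at 2548 to 5911 CPM on P0 and 2578 to 7592 CPM on P3, as did basal keratinocyte markers, at 5322 to 9365 and 4472 to 6949 CPM. WT replicate 4 of P0 had the lowest sum of its group for both epithelial (2819 CPM) and basal keratinocyte markers (5322 CPM). The other 4 marker sums overlapped between the days. Hair shaft and claw markers ran from 223 to 572 CPM on P0 and from 169 to 1309.6 CPM on P3, keratins of filiform papillae and tongue from 115 to 387 and from 26.2 to 498 CPM, sweat gland markers from 24.3 to 54.3 and from 26.7 to 111 CPM, and bone and fibroblast markers from 20109.8 to 54623 and from 15824 to 67097 CPM. No listed marker was at 0 in all libraries. The part of these differences in the Lce3 values was not tested.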

How the data were processed

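Per the labels' protocols, RNA was extracted from whole paws with TRIzol, and an external contractor depleted ribosomal RNA, made libraries and sequenced them. The deposited table holds raw read counts per gene, made by the authors without normalization. Per the submitters' processing notes, the tools were featureCounts, limma, edgeR and STAR 2.7.10a, with GRCm39 as the build. The strand setting and filters are unknown here. No column of the table lacked a sample.

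Low genes were dropped with filterByExpr. The rest went, after TMM scaling, into a robust quasi-likelihood model of edgeR 4.0.16 (R 4.3.3) that held the 14 libraries, their 4 groups and labelled sex, with 9 residual degrees of freedom. Benjamini-Hochberg adjustment ran over all 21619 genes tested, with a threshold of 0.05. The procedure was also run on simulated counts. These held no column block, litter or sex effect, so that run cannot show how the calls here bear such effects. Totals of 28947715 to 41004173 counts set the precision: 3 counts, the limit that a count of 0 allows, and the exact intervals at 95% cover counting error only. Members, lists and comparisons were chosen with earlier results of these data known. Named genes are the members, their neighbours, Krt9, Krt19, Xist, Ddx3y, the 3 genes of each list with the highest mean CPM, and the 5 genes most like the Lce3 sum by each measure, among genes of at least 1 CPM on average and without predicted genes. Of these, 1 gene is not reported here. The 8 gene lists and the 10 marker lists used here are by gene symbol. Symbols, lengths and gene order come from GENCODE vM21 and RefSeq (GRCm38.p6), and promoter sequences from RefSeq. Of 56691 gene IDs, 52073 matched a symbol.

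The labels give each library a litter number, which recurs on both days. Whether an equal number on both days means the same litter is unknown here. Over the 7 pairs of libraries with equal number in different groups, deviations from the group means correlated between -0.05 and 0.08. The limma consensus correlation was 0.555 for litter within day and -0.05 for litter number across the days. The first value rests on WT replicate 1 with Krt9 null replicate 1 of P0, and on WT replicates 2 and 3 of P3. These libraries are all in column block A and the fit held no block term, so the value can also hold differences between the blocks. The main model has no litter term. Libraries of 1 group differed by more than sampling noise in every pair. The alternatives were other scaling, filters and tests (DESeq2 1.42.0, limma 3.58.1), no sex term, litter or column block as terms, each block alone, and leaving out each library. Python 3.11.15 with pandas 2.3.3, SciPy 1.17.1 and Biopython 1.88 served for the rest.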

Additional observations from a re-analysis of the deposited data

Results flagged for a closer look

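Lce3b in the WT paws of P3 was at 0.09266 CPM (3 raw counts) in replicate 5 and at 0 in the other 4 libraries, so that this library lay outside the range of the rest by the whole spread of the group. Of 15 groups of member levels examined this way, this was the only 1 so marked, and chance marks about 5% of groups. That rate does not apply here, because with the other 4 libraries at 0 any count in 1 library gives such a gap. Lce3a in the Krt9 null paws of P3, with 0, 0 and 4 raw counts, has the same form and was not marked. The value equals the limit that a count of 0 allows (3 counts) and cannot be told from 0.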

How the results depend on the processing

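The call of 5 Lce3 members between the days in WT paws became 4 or 5 under other scaling, filters and tests, and 1 (Lce3d) with column block B alone, where 1 library stands for P0 and 486 genes were called in place of 3581. With litter number as a fixed replicate block it was 0, in a fit that called 3 genes in all; with litter within day as a random replicate block (limma voom) it was 4, with 3008 genes called. Leaving out 1 library gave 4 to 5. For the days in Krt9 null paws, 0 members became 1 with library size only, 2 with DESeq2, 3 with block B alone and 4 without the filter, where 218, 1094, 1686 and 1692 genes were called in all in place of 166. It was 0 to 1 when 1 library was left out, the 1 being Lce3f without P0 WT replicate 4, with 155 genes called. Without the filter, 2 members (Lce3d and Lce3e) were called between genotypes on P0 and 4 in the interaction, in a fit that called 182 and 617 genes in place of 1 and 0. No other alternative of those run changed the genotype, interaction, sex or column block counts from 0. The fitted day differences of Lce3c, Lce3d, Lce3e and Lce3f kept their sign under all 29 alternatives in each genotype. The genotype differences took the other sign in 4 of 116 values on P0 (4 genes, 29 alternatives) and 6 of 116 on P3, of which 1 is Lce3d in block A, against a library at 0. The cause of these changes was not tested. Among the 5 genes most like Lce3, 4 or 5 stayed with a pseudocount of 2 or a minimum of 5 CPM. Depth limits Lce3a, Lce3b and, on P3, Lce3d and Lce3f.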
